A study of Mus musculus with 12 samples.

Results

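The interaction of a β-catenin gain and a Notch1 loss was described across the genes of the postnatal mouse cochlea, that is, how far RNA levels after both changes together departed from what the 2 single changes add up to. For each gene the mean log2(FPKM + 0.5) of the samples with both changes was taken, the means of the 2 single changes were subtracted, and the Control mean was added. FPKM counts fragments per kilobase of transcript and scales them to the size of the library. All 12 of the 12 samples entered, and 14581 of the 23598 rows of the table were tested, those with at least 0.5 FPKM in at least 3 samples. On this log2 scale 0 means that the folds of the single changes multiply (additivity), a positive value means more RNA in the double samples than that product, and a negative value means less. A value of 1 is a level 2 times the additive one. The interaction passed an adjusted p of 0.05 in 3 of 14581 rows (0.0206%): Ivl and Ism1, more than additive (0.0137% positive), and Aldh1a2, which was low only where both changes were present (0.00686% negative). These are the 3 genes that were named as markers of the interaction from earlier results of these data, so the calls are a description.

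Wnt ligands bind Frizzled receptors and stop the destruction of β-catenin, which then enters the nucleus and turns on genes together with TCF/LEF factors. Many of these genes encode feedback inhibitors of the pathway. Notch receptors are cut when a neighbouring cell presents a ligand, and the freed inner part joins the DNA-binding protein RBPJ to turn on Hes and Hey repressors. In the organ of Corti, Notch signalling between cells keeps supporting cells from becoming hair cells, the sensory cells of hearing, while Wnt activity is linked to division of progenitors and Lgr5+ supporting cells. The series' design text concerns supporting cell division and new hair cells after changes to both pathways.

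RNA was taken from the apical and middle cochlear turns of mice at postnatal day 7, and at least 6 cochleae were pooled for each sample. The 4 groups held 3 samples each, and they were Control, β-catenin overexpression (OE; b-catenin-OE in the labels), Notch1 knockout (KO; Notch1-KO in the labels), and b-catenin-OE together with Notch1-KO, called the double group here. The labels name no allele, promoter, Cre driver, inducing agent or strain, so neither the cells that carried the changes nor what the Control animals carried is given in the sources used here. Nothing says that the samples of a group are separate pools of animals, and the p-values therefore reflect no more than the spread among these samples, which may be technical. The tissue was bulk, in which fewer cells of a type and less RNA per cell cannot be told apart.

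The samples numbered 1 stood apart. In 5890 genes that reached 10 FPKM in every sample, log2 values of samples 2 and 3 of a group differed with a robust SD of 0.0744 to 0.131, and sample 1 differed from either of them with 0.287 to 0.438. Genes of the Y chromosome were also split by number, with Ddx3y at 0 to 0.00822 FPKM in samples 1 of Control, β-catenin OE and Notch1 KO but at 11.5 in sample 1 of the double group and at 12.6 to 24.3 in all samples 2 and 3. Xist, expressed from the inactive X, was at 0.0239 and 0.0146 FPKM in samples 2 and 3 of the double group and at 19.5 to 134 in the other samples. The part of sample sex in the results was not tested, and interactions are given below also from the samples numbered 1 alone and from samples 2 and 3 alone. Low values of samples 2 and 3 lay on steps of whole fragments that give 18300000 to 26800000 fragments per sample if FPKM was not scaled further, whereas 24.1% to 39.7% of the low values of samples 1 were near whole numbers and their depth is unknown. Cochlear markers were present in every sample, with Epcam at 251 to 305 FPKM, Sox2 at 27.2 to 62.1 and the hair cell factor Pou4f3 at 13.2 to 53.8. The basal keratinocyte keratins Krt5 and Krt14 stayed at or below 0.104 FPKM. Other epidermal genes were detected in every sample, with Krt10 at 2.45 to 5.47 FPKM, Krt1 at 0.655 to 1.96 and Lor at 0.77 to 4.01.

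The targeted genes were examined first. Notch1 was at 24.3, 14.7 and 16.6 FPKM in the 3 Control samples, 37.6, 15.7 and 16.7 with β-catenin OE, 9.16, 7.63 and 7.56 with Notch1 KO and 8.62, 5.70 and 5.77 with both changes. All 6 samples labelled with the knockout were below all 6 others. The interaction of Notch1 was -0.52 ± 0.43 (SE; limma adjusted p = 0.926; 95% interval -1.46 to 0.42), which is too wide to place the loss of Notch1 RNA in the double group within 2-fold of additivity. Ctnnb1, which encodes β-catenin, was at 435, 369 and 372 FPKM in Control, 372, 411 and 410 with β-catenin OE, 383, 382 and 374 with Notch1 KO and 408, 482 and 472 with both changes. Its total RNA overlapped between Control and β-catenin OE, and its interaction was 0.23 ± 0.17 (adjusted p = 0.885; interval -0.13 to 0.59), within 2-fold of additivity. RNA of Ctnnb1 does not report the stability of the protein.

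Ivl encodes involucrin, a precursor of the cornified envelope of squamous epithelia. It was at 0.0188, 0.0969 and 0.0672 FPKM in the Control samples and at 0.0178, 0.0833 and 0.0315 in Notch1 KO. In β-catenin OE it was at 1.32, 1.61 and 1.47 FPKM, and in the double group at 5.90, 8.25 and 8.79. Control and Notch1 KO overlapped near 0, every β-catenin OE sample was above both, and every double sample was above every β-catenin OE sample. The single effects on the log2(FPKM + 0.5) scale were 1.81 for β-catenin OE and -0.04 for Notch1 KO, and the double effect was 3.84 ± 0.17. The interaction was 2.08 ± 0.24 (SE, n = 3 per group; interval 1.55 to 2.6; limma adjusted p = 0.0166), or 1.82 from samples 1 and 2.21 from samples 2 and 3. Additivity would have put the double group at 1.4 FPKM, against an observed geometric mean of 7.54. The row stood at chr3:92570900-92613461 (mm10) and reached beyond the RefSeq gene Ivl, which ends at 92573790.

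Ism1 encodes isthmin 1, a secreted protein. It was at 10.96, 12.2 and 11.9 FPKM in Control, 19.9, 28.2 and 27.8 with β-catenin OE, 5.4, 6.09 and 5.90 with Notch1 KO, and 39.7, 44.5 and 48.1 with both changes. The 4 groups did not overlap. Notch1 KO samples were below Control, but double samples were above β-catenin OE, so the loss of Notch1 went with less Ism1 RNA in one background and more in the other. The single effects were 1.07 for β-catenin OE (adjusted p = 0.00191, in a comparison that called 2.24% of rows, 1.36% higher) and -0.95 for Notch1 KO (adjusted p = 0.0116, with 0.857% called, 0.322% lower). They cancel to a sum of 0.12, whereas the double effect was 1.87 ± 0.14. The interaction was 1.75 ± 0.19 (interval 1.33 to 2.18; adjusted p = 0.0166), with 1.93 from samples 1 and 1.66 from samples 2 and 3. Its row lies at chr2:139673442-139758774.

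Aldh1a2 encodes a retinaldehyde dehydrogenase that makes retinoic acid, the vitamin A signal. It was at 21.7, 35.5 and 35.6 FPKM in Control, 23.8, 26.05 and 25.4 with β-catenin OE, 39.2, 42.0 and 41.2 with Notch1 KO, and 10.8, 8.99 and 8.70 with both changes. Control sample 1 lay below the β-catenin OE samples and the other 2 Control samples above them, all Notch1 KO samples were the highest, and all double samples were below every other sample. Neither single effect passed the test (-0.26, adjusted p = 0.575, and 0.43, adjusted p = 0.482), and the double effect was -1.62 ± 0.17. The interaction was -1.79 ± 0.24 (interval -2.31 to -1.26; adjusted p = 0.0490), with -1.94 from samples 1 and -1.71 from samples 2 and 3. Additivity would have put the double group at 33.9 FPKM, against an observed 9.45. The row lies at chr9:71215789-71296243.

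**Figure D1:**
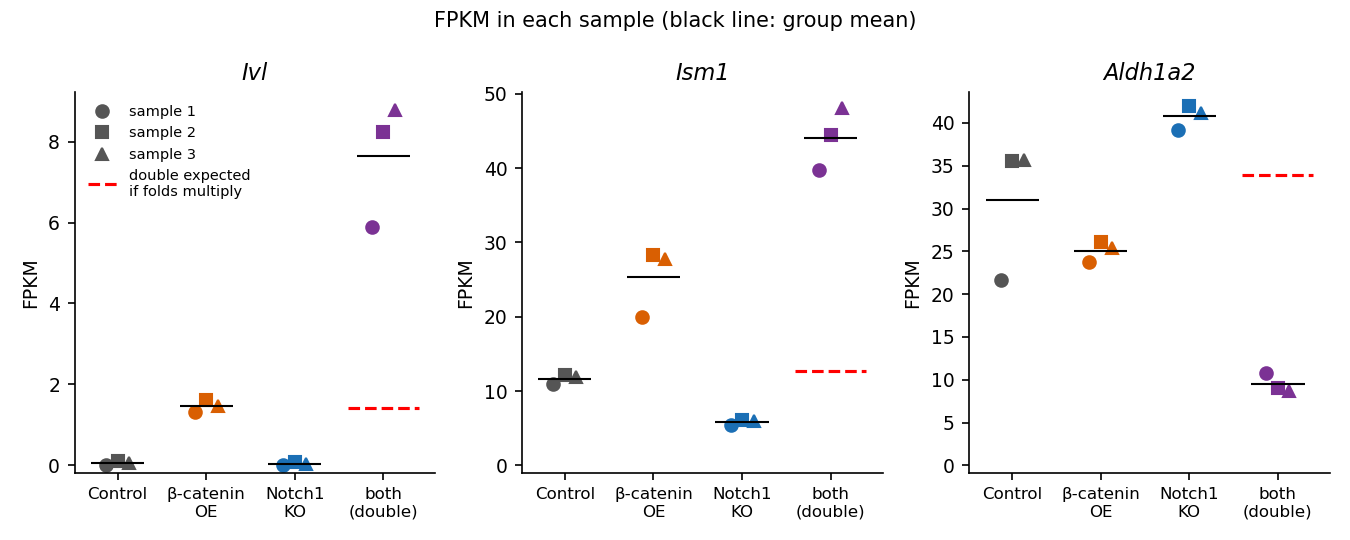
FPKM of Ivl, Ism1 and Aldh1a2 in each of the 12 samples by group, with black lines at group means and a red dashed line at the level of the double group if the 2 single folds multiplied. The double samples of Ivl and Ism1 lie above the dashed lines at 1.4 and 12.7 FPKM, and those of Aldh1a2 lie below the line at 33.9.

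The plot of FPKM by group shows that in all 3 genes each of the 3 double samples lay on the same side of the additive level. These calls rest on the samples numbered 2 and 3 counting as separate samples. When the pair numbered 2 and 3 was averaged within each group, the interaction was 2.01 for Ivl, 1.8 for Ism1 and -1.83 for Aldh1a2, none past the threshold (adjusted p = 1 for each). Leaving out 1 of Control 2, Control 3, β-catenin OE 3, Notch1 KO 2, Notch1 KO 3, double 2 or double 3 left none of the 3 called, with adjusted p of 0.0564 to 0.118 for Ivl, 0.0537 to 0.118 for Ism1 and 0.0564 to 0.176 for Aldh1a2. Without β-catenin OE 2, Ism1 alone was called (0.0408), and Ivl was at 0.0627 and Aldh1a2 at 0.157. Over all 12 samples left out in turn the sizes ranged from 1.97 to 2.24 for Ivl, from 1.59 to 1.84 for Ism1 and from -1.91 to -1.55 for Aldh1a2.

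Promoters of called genes and of genes with a match are shown because both pathways act through DNA-binding factors with short recognition sequences. Of the 65 genes with values by sample here, 48 have a promoter in the RefSeq table (GRCm38.p6, the mm10 build), with Ivl and Aldh1a2 among them and not Ism1. The 250 bases before the start were searched on both strands for the TCF/LEF sequences CTTTGAT and CTTTGAA and the RBPJ sequence GTGGGAA. Matches of the 2 kinds do not overlap in the promoters printed. The promoters of Ivl (chr3:92573736-92573985, minus strand) and Aldh1a2 (chr9:71215539-71215788, plus strand) hold none of them. The Ivl window overlaps the stated extent of the gene, since the start used in the promoter table lies inside that extent. Those of Sp5 (chr2:70474673-70474922, plus strand) and Fgf3 (chr7:144838362-144838611, plus strand), whose interactions had positive point estimates, hold a TCF/LEF match, and so does that of Reg3g (chr6:78468875-78469124, minus strand), a secreted antimicrobial lectin, whose point estimate was negative at -1.74. Capitals mark matches, and the strand printed is that of the gene.
Ivl: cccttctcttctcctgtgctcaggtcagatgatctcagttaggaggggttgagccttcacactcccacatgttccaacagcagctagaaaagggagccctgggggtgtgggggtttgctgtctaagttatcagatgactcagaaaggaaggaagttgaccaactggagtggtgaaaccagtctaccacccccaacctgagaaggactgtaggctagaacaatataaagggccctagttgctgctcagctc
Aldh1a2: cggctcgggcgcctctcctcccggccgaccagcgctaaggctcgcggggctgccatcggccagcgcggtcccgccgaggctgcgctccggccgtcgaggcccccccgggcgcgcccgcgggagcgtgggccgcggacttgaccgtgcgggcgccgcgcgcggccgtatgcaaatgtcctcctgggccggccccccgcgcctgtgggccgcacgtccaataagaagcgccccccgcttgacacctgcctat
Sp5: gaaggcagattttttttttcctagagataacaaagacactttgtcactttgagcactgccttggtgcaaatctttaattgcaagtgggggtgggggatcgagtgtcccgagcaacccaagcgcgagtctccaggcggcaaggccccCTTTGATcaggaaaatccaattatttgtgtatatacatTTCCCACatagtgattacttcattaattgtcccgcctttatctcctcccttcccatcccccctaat
Fgf3: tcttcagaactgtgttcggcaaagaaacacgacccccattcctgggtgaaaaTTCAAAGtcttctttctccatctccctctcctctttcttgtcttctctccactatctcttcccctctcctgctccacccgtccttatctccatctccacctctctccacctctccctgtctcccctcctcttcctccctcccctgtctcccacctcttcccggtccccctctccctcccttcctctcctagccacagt
Reg3g: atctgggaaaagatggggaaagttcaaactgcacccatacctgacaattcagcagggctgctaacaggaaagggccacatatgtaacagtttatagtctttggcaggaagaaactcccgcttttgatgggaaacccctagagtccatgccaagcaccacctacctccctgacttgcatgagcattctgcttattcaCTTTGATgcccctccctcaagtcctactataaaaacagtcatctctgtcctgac
Sp5 holds CTTTGAT 104 bases before the start and an RBPJ match on the other strand 66 bases before it, Fgf3 holds CTTTGAA on the other strand 198 bases before the start, and Reg3g holds CTTTGAT 54 bases before it. The other RBPJ matches were in Mical1, Lfng and Hey2. Of the 48 promoters, 3 hold a TCF/LEF match and 4 an RBPJ match, beside 7.67% and 5.41% of all 27025 promoters. A match describes letters only, and its absence from this window says nothing of binding elsewhere.

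Over all genes the median interaction was -0.00146. FPKM is scaled to the size of the library, so a median near 0 is largely set by that scaling and is no measure of additivity. The 5th and 95th percentiles were -0.64 and 0.62, and 516 rows (3.54%) had a size of at least 1. At an unadjusted p under 0.05 there were 1226 rows (8.41%), 588 positive (4.03%) and 638 negative (4.38%). At an adjusted p under 0.1 there were 31, of which 16 were positive. The median SE was 0.26, so that a typical 95% interval reached 0.56 to either side. The interval lay wholly within -1 to 1, that is, within 2-fold of additivity, in 10303 rows (70.7%), and within -0.5 to 0.5 in 2328 (16.0%). In 3337 rows the interval held 0 and also values past 1 in size, so that it covered both additivity and a departure of over 2-fold.

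The genes next in line missed the threshold at a limma adjusted p of 0.0572, and their values are given without a call. Glul encodes glutamine synthetase, which makes glutamine from glutamate. It was at 99.8, 81.5 and 85.1 FPKM in Control, 204, 214 and 218 with β-catenin OE, 90.4, 88.3 and 90.4 with Notch1 KO, and 402, 418 and 424 with both changes. Notch1 KO lay within the Control range and the double group far above β-catenin OE, with an interaction of 0.94 ± 0.14. Dcpp1, a secreted gland protein, was at 0 to 0.441 FPKM in all 9 samples outside the double group and at 3.31, 10.5 and 12.1 in it. Its interaction of 3.86 ± 0.58 is on a scale set by the added 0.5 FPKM, since the other groups hold values at 0. Only its double samples reached the 0.5 FPKM of the filter, so a positive sign was set in advance. Notum encodes an esterase that inactivates Wnt ligands outside the cell. It was at 109, 95.6 and 106 FPKM in Control, 124, 92.1 and 95.05 with β-catenin OE, 67.3, 64.8 and 60.7 with Notch1 KO, and 130, 144 and 137 with both changes. Notch1 KO was the lowest group and the double group the highest, and the interaction was 1.1 ± 0.17.

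Negative point estimates of the same rank took different shapes. Frmd3, a FERM domain protein, was at 15.1 to 23.6 FPKM in all 9 samples outside the double group and at 5.77, 6.51 and 5.18 in it, for an interaction of -1.38 ± 0.21. This is the shape of Aldh1a2, low in the double group alone. Mamdc2, an extracellular protein with MAM domains, was at 1.23 to 1.85 FPKM in Control, 3.08 to 4.03 with β-catenin OE, 1.67 to 2.88 with Notch1 KO and 1.15 to 1.31 with both changes, with an interaction of -1.79 ± 0.27. Mical1 encodes an enzyme that oxidises actin and takes filaments apart. It was at 8.02 to 9.62 FPKM in Control, 12.3 to 13.2 with β-catenin OE, 11.1 to 11.7 with Notch1 KO and 7.82 to 8.59 with both changes, for -0.93 ± 0.15. In Mamdc2 and Mical1 both single groups had higher means than Control while the double group did not, so the single differences were not carried into the double group. Fam172a was at 17.9 to 21.7 FPKM in Control, 61.4 to 120 with β-catenin OE, 37.9 to 59.0 with Notch1 KO and 39.5 to 55.1 with both changes. Its double samples lay among the Notch1 KO samples and below every β-catenin OE sample, with an interaction of -2.23 ± 0.34.

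**Figure D2:**
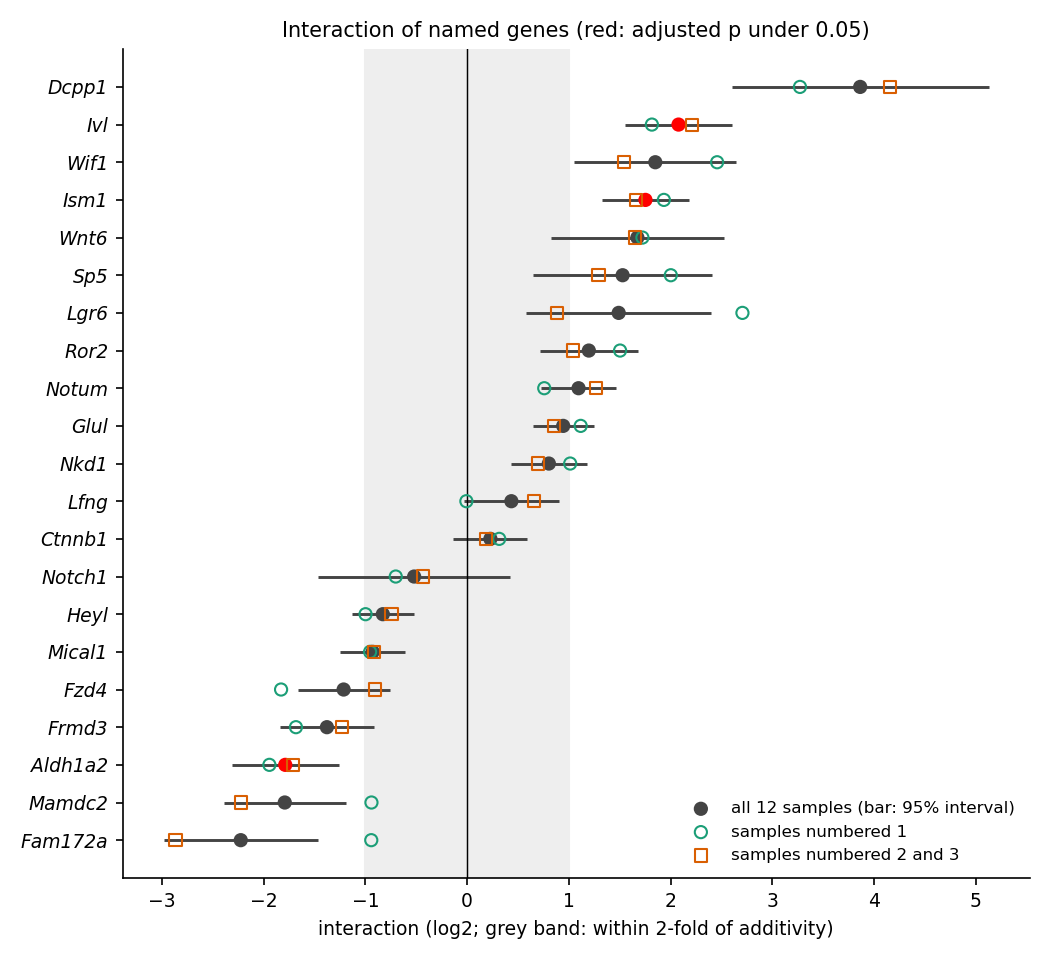
Interaction on the log2 scale for 21 genes, with the value from all 12 samples (filled, bar for the 95% interval, red where the adjusted p is under 0.05) and from samples 1 (open circle) and samples 2 and 3 (open square). The 3 red points are Ivl at 2.08, Ism1 at 1.75 and Aldh1a2 at -1.79, and the grey band spans -1 to 1.

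In the plot of named genes the sets of samples gave the same sign for every gene but Lfng, which was at -0.01 in samples 1. This agreement was largely set in advance by how the genes were chosen. The uncalled genes next in line, such as Glul and Notum, were admitted only with the same sign in every sample number. The called genes were named from earlier results of these data, and pathway members were chosen after their values were seen. The sets lay farthest apart for Fam172a (-0.94 and -2.87) and Lgr6 (2.71 and 0.88).

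Additive genes were sought among those that changed most. In double against Control 1826 rows passed (12.5%), 858 higher (5.88%) and 968 lower (6.64%), and in 1017 of them (55.7%) the interval of the interaction lay within -1 to 1. These intervals too count samples 2 and 3 as separate samples. Of the same 1826 rows, 3 were called for the interaction. Among them 30 genes also had both single effects of at least 0.5 in the direction of the double, and the 8 with the largest double effect are described. Gipc2, a PDZ domain protein, was at 4.84, 8.81 and 8.04 FPKM in Control, 2.81, 3.27 and 2.999 with β-catenin OE, 2.17, 2.94 and 3.13 with Notch1 KO, and 1.67, 1.17 and 1.06 with both changes. Each single group was below Control and the double group below both, at 1.28 FPKM against 1.01 under additivity (interaction 0.24 ± 0.31, interval -0.44 to 0.93). Adamts15, an extracellular protease, was at 12.9 to 17.3 FPKM in Control, 4.66 to 5.05 with β-catenin OE, 9.74 to 10.3 with Notch1 KO and 3.14 to 3.89 with both changes. The 4 groups did not overlap, and the double level of 3.56 FPKM was close to the additive 3.03 (interaction 0.20 ± 0.18, interval -0.20 to 0.61), although the interaction was -0.20 in samples 1 and 0.40 in samples 2 and 3. Lfng, a sugar transferase that modifies Notch, was at 68.4 to 81.2 FPKM in Control, 46.7 to 68.3 with β-catenin OE, 22.3 to 23.2 with Notch1 KO and 18.6 to 24.1 with both changes. The double samples overlapped those of Notch1 KO, and the interaction of 0.43 ± 0.21 had an interval of -0.03 to 0.90. For Lfng it was -0.01 in samples 1 and 0.66 in samples 2 and 3. Samples 2 and 3 alone, which called 19.3% of rows, called Lfng (limma adjusted p = 0.00308) and Adamts15 (0.0251). The intervals of Itgbl1, S100b, Gpr45, Ccl9 and Erich3 were likewise within 2-fold of additivity, with interactions of -0.04, -0.15, -0.26, -0.01 and 0.08. Apart from Gpr45 these averaged opposite signs in the sets, most of all S100b with 0.71 in samples 1 and -0.58 in samples 2 and 3 (limma adjusted p = 0.0004 there). Ccl9, a chemokine, and Erich3 were higher than Control in all 3 other groups, and the rest were lower.

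**Figure D3:**
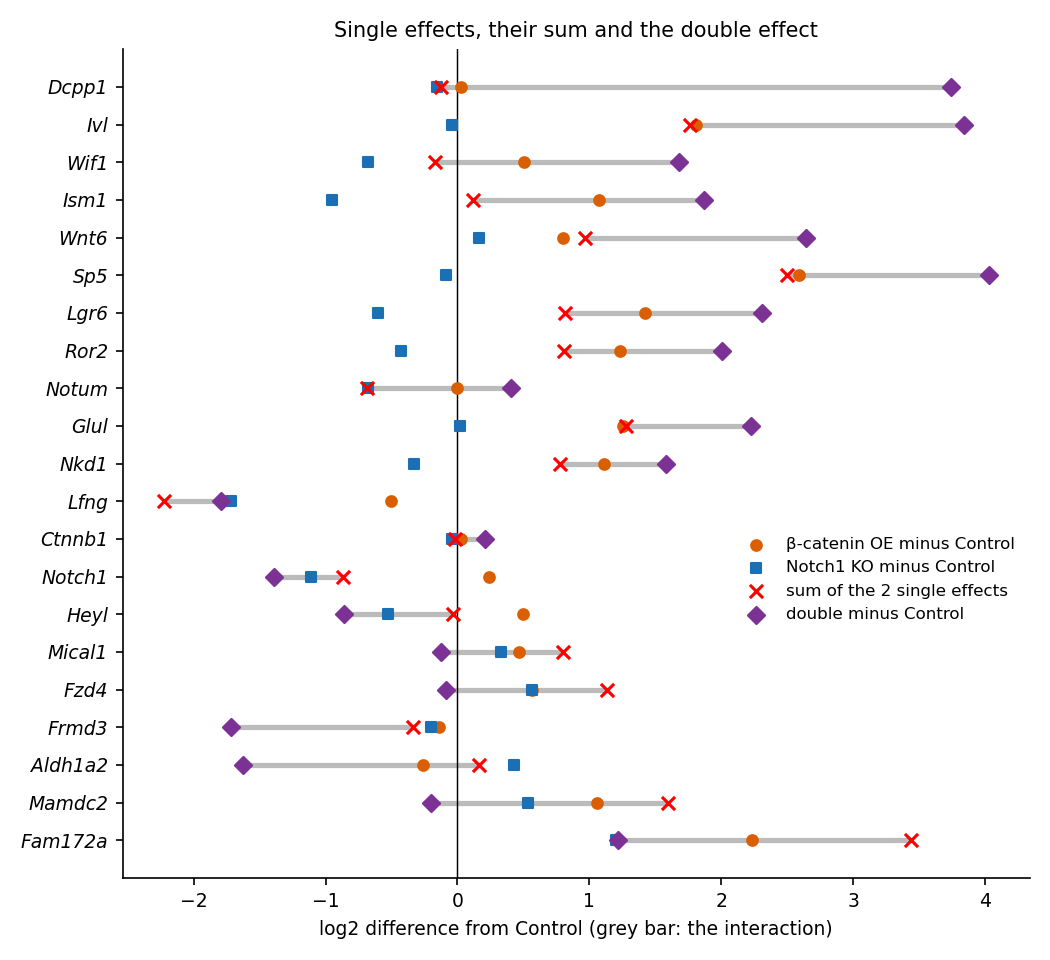
For each of 21 genes the log2 difference from Control of β-catenin OE (circle), Notch1 KO (square), their sum (red cross) and the double group (diamond), with the grey bar from the sum to the double effect as the interaction. For Ism1 the sum is 0.12 and the double effect 1.87, and for Aldh1a2 they are 0.16 and -1.62.

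The plot of single and double effects separates several shapes. In Ivl, Glul and Sp5 the sum sits at the β-catenin OE effect and the double lies beyond it. In Ism1 and Wif1 opposite single effects nearly cancel, yet the double is positive. In Aldh1a2, Frmd3 and Dcpp1 neither single effect reaches 0.5 in size and the double departs alone. Dcpp1 passed the filter only through the double group, so its shape was largely set in advance.

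Genes of the Wnt pathway were read from lists, in order of their roles, and the members named below were chosen after their values were seen. None of the 41 tested Wnt ligands and receptors was called, and 8 had a positive and 4 a negative interaction at an unadjusted p under 0.05 (4.03% and 4.38% of all rows). The list's median was 0.04. Wnt6, a ligand, was at 2.10, 3.03 and 3.4 FPKM in Control, 2.99, 6.17 and 7.68 with β-catenin OE, 3.95, 3.06 and 2.69 with Notch1 KO, and 19.2, 20.8 and 20.2 with both changes. The double samples were above all others, and the interaction was 1.67 ± 0.39 (adjusted p = 0.156), nearly equal in the sets at 1.72 and 1.65. Ror2, a receptor for Wnt5a, was at 2.62 to 3.73 FPKM in Control, 7.46 to 9.15 with β-catenin OE, 2.01 to 2.59 with Notch1 KO and 13.0 to 16.0 with both changes. Its groups did not overlap, with Notch1 KO below Control and the double group above β-catenin OE as in Ism1 (1.20 ± 0.22, adjusted p = 0.0900). The receptor Fzd4 went the other way. It was at 17.3 to 25.1 FPKM in Control, 30.1 to 36.7 with β-catenin OE, 30.9 to 33.6 with Notch1 KO and 17.9 to 22.4 with both changes, so that the double samples lay within the Control range (-1.21 ± 0.21, adjusted p = 0.0654). Of the Dickkopf family of secreted modulators, Dkk2 had an interaction of 0.74 ± 0.19 (adjusted p = 0.203) and Dkk3 of -0.66 ± 0.18 (adjusted p = 0.214).

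Wnt targets and feedback genes had a median above 0, with no member called. Of 28 in the list 23 were tested, 0 passed the adjusted threshold, and 11 had a positive and 1 a negative interaction at an unadjusted p under 0.05, beside 4.03% and 4.38% of all rows. Their median interaction was 0.60, with 1.01 in samples 1 and 0.35 in samples 2 and 3, beside -0.00146 over all rows. The interval lay within -1 to 1 in 8 of the 23 (34.8%), beside 70.7% of all rows. Sp5, a zinc finger factor, was at 5.83, 5.71 and 6.60 FPKM in Control, 28.3, 45.4 and 45.4 with β-catenin OE, 8.33, 4.58 and 4.65 with Notch1 KO, and 161, 84.6 and 87.5 with both changes. Control and Notch1 KO overlapped, and the double samples were above every β-catenin OE sample (1.53 ± 0.40, adjusted p = 0.203). Wif1, a secreted inhibitor that binds Wnt ligands, was at 89.0, 49.0 and 47.0 FPKM in Control, 67.5, 94.3 and 93.3 with β-catenin OE, 32.6, 39.3 and 38.5 with Notch1 KO, and 137, 223 and 223 with both changes. Control sample 1 lay within the β-catenin OE range, Notch1 KO was lowest and the double group highest (1.85 ± 0.36, adjusted p = 0.103). Nkd1, which inhibits Dishevelled, had 0.80 ± 0.17 (adjusted p = 0.120), and the R-spondin receptor Lgr6 had 1.49 ± 0.41 (adjusted p = 0.233). Axin2, the scaffold of the destruction complex, had means of 23.05, 39.6, 22.2 and 68.3 FPKM in Control, β-catenin OE, Notch1 KO and double samples (0.87 ± 0.29, adjusted p = 0.373). Lgr5, a marker of progenitor-like supporting cells, had 7.75, 38.5, 7.10 and 50.3 FPKM, closer to additivity at 0.54 ± 0.21 (adjusted p = 0.507) and at 0.02 in samples 1. Cd44 was the member with a negative value at an unadjusted p under 0.05 (-0.58 ± 0.22, adjusted p = 0.472).

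Genes of the Notch pathway had medians near 0. None of the 16 tested receptors and ligands and none of the 12 tested targets was called, and their medians were -0.13 and -0.06. No receptor or ligand, and 1 target in each direction, had an unadjusted p under 0.05 (8.41% of all rows did). Heyl, a repressor of the Hes and Hey family, was at 12.1, 12.1 and 12.4 FPKM in Control, 17.2, 17.8 and 17.3 with β-catenin OE, 8.57, 7.74 and 8.66 with Notch1 KO, and 5.87, 6.94 and 6.73 with both changes. The 4 groups did not overlap: β-catenin OE was the highest, yet the double group was below Notch1 KO (-0.83 ± 0.14, adjusted p = 0.0654). Hes1, of the same family, was at 10.4 to 16.6 FPKM in the 3 other groups and at 19.7 to 24.8 in the double group (0.62 ± 0.25, adjusted p = 0.506). Hes5 had means of 2.72, 0.437, 0.892 and 0.169 FPKM in Control, β-catenin OE, Notch1 KO and double samples. The double effect was -2.13 and the sum of single effects -2.75, which is past the lowest value that the added 0.5 FPKM allows at this Control level, so the interaction of 0.63 ± 0.49 (adjusted p = 0.913) does not bear on additivity. The ligands Jag1 and Jag2 had -0.43 ± 0.20 and -0.49 ± 0.35 (adjusted p = 0.601 and 0.869). The coactivator Maml2 had 0.23 ± 0.19 (adjusted p = 0.926), and its interval of -0.19 to 0.66 was within 2-fold of additivity, as were those of the ubiquitin ligase Dtx1 and the repressor Hey2.

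Retinoic acid genes and epidermal genes each hold a called member. Of 18 tested retinoic acid genes Aldh1a2 was called and the median was 0.03. At an unadjusted p under 0.05, 3 members were negative, Aldh1a2 among them, and 2 were positive, beside 4.38% and 4.03% of all rows. Cyp26b1, which breaks retinoic acid down, was at 30.01 to 32.4 FPKM in Control, 9.23 to 12.3 with β-catenin OE, 18.0 to 36.8 with Notch1 KO and 2.91 to 5.31 with both changes. The double samples were below all others (-0.98 ± 0.38, adjusted p = 0.485). Stra6, the receptor for retinol uptake, was at 5.42 to 5.82 FPKM in Control, 4.97 to 5.63 with β-catenin OE, 6.20 to 11.1 with Notch1 KO and 10.6 to 15.7 with both changes (0.76 ± 0.29, adjusted p = 0.476). The retinoid X receptor Rxrg had -0.60 ± 0.21 (adjusted p = 0.436). Aldh1a3, another enzyme that makes retinoic acid, had means of 12.1, 123, 9.49 and 308 FPKM in the 4 groups in the same order. Its interaction of 1.47 ± 0.78 (adjusted p = 0.696) was 3.56 in samples 1 and 0.42 in samples 2 and 3.

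Of 38 epidermal differentiation genes 14 were tested and Ivl alone was called. The list's median was -0.02. The factor Klf4 had -0.90 ± 0.26 (adjusted p = 0.267) but 0.11 in samples 1, the keratin Krt1 had -0.55 ± 0.31 (adjusted p = 0.738), and the desmosome protein Pkp1 had -1.21 ± 0.70 (adjusted p = 0.763) with opposite signs in the sets. Lor, the loricrin of the cornified envelope, was at 0.77 to 0.99 FPKM in Control, 1.67 to 2.0 with β-catenin OE, 1.14 to 1.46 with Notch1 KO and 2.19 to 4.01 with both changes. Its 4 groups did not overlap, and its interaction was 0.19 ± 0.27 (adjusted p = 1.0). The summed level of the epidermal list was 43.9 to 55.0 FPKM in Control and 43.6 to 50.2 in the double group.

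Fibroblast growth factor genes held large point estimates with wide errors. Of 20 tested, 0 were called, 4 were positive and 1 negative at an unadjusted p under 0.05 (4.03% and 4.38% of all rows), and the median was 0.16. Fgf3, a ligand with a role in inner ear formation, was at 0.514, 0.888 and 0.935 FPKM in Control, 2.04, 12.1 and 13.9 with β-catenin OE, 0.226, 0.0538 and 0.164 with Notch1 KO, and 18.4, 31.5 and 31.0 with both changes. Its groups did not overlap, with the β-catenin OE sample 1 far below the other 2 (2.76 ± 0.74, adjusted p = 0.214). Fgf20, a ligand needed for the sensory epithelium, had means of 0.579, 10.7, 0.414 and 30.6 FPKM in the 4 groups (2.23 ± 1.19, adjusted p = 0.702). The feedback inhibitors Spry1 and Spry4 had 0.64 ± 0.20 and 0.94 ± 0.52 (adjusted p = 0.342 and 0.723).

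Hair cell genes had medians below 0, again with no member called. Of 40 tested maturing hair cell genes 10 had a negative and 0 a positive interaction at an unadjusted p under 0.05 (4.38% and 4.03% of all rows), with a median of -0.36, or -0.85 in samples 1 and -0.17 in samples 2 and 3. Their median single effects were -0.16 for β-catenin OE and 0.74 for Notch1 KO, and the median double effect was 0.30. Otof, needed for release of transmitter at the hair cell synapse, was at 16.6, 19.5 and 20.8 FPKM in Control, 23.7, 14.3 and 14.8 with β-catenin OE, 39.5, 38.6 and 38.2 with Notch1 KO, and 26.3, 22.3 and 20.6 with both changes. Notch1 KO samples were above all others, while the double group overlapped Control (-0.61 ± 0.25, adjusted p = 0.522). Rbm24, an RNA-binding protein of hair cells, had means of 40.7, 38.1, 39.7 and 17.3 FPKM in Control, β-catenin OE, Notch1 KO and double samples. It was low in the double group alone (-1.06 ± 0.19, adjusted p = 0.0853). Of 15 tested early hair cell genes the median was -0.34, and Atoh1, the factor that starts hair cell fate, had -0.77 ± 0.46 (adjusted p = 0.777).

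Of 31 tested supporting cell genes the median was -0.25, with 3 positive and 6 negative at an unadjusted p under 0.05 (4.03% and 4.38% of all rows). Tectb, a protein of the tectorial membrane, had means of 3721, 3856, 3758 and 1672 FPKM in Control, β-catenin OE, Notch1 KO and double samples. This too was low in the double group alone (-1.16 ± 0.34, adjusted p = 0.275). Penk, the enkephalin precursor, had -1.70 ± 0.57 (adjusted p = 0.387). Trh, which encodes thyrotropin-releasing hormone, had 1.88 ± 0.43 (adjusted p = 0.153). Its Control mean was 1.76 FPKM, its single effects were -1.91 and -1.98 and its double effect was -2.01, which is near the lowest value that the added 0.5 FPKM allows.

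Several lists of other cell types turned on the sample number. Schwann and myelin genes had a median of -1.02 over 18 genes, but 0.25 in samples 1 and -1.56 in samples 2 and 3, and their summed level ran from 837 to 3468 FPKM within Control, with the highest in sample 1. Macrophage and immune genes had 1.17 over 23 genes, with 2.76 in samples 1 and 0.13 in samples 2 and 3, and a summed level in Control of 170 to 820 FPKM, again highest in sample 1. Interferon response genes had 3.39 in samples 1 and -0.36 in samples 2 and 3. Genes of the G2 and M phases of the cell cycle had 1.79 in samples 1 and -0.68 in samples 2 and 3 over 39 genes, and their summed level was 54.9 FPKM in β-catenin OE sample 1 against up to 280.5 in that group. The part of these cells and of sample 1 in the interactions was not tested. Lists of other cell types whose median had the same sign in both sets included stria vascularis and ion transport genes (-0.56, with 7 of 18 negative at an unadjusted p under 0.05, beside 4.38% of all rows), melanocyte genes (-0.58) and spiral ganglion neuron genes (-0.59, with 7 of 23). Red blood cell genes (-1.32 over 4) and bone and cartilage genes (0.57 over 15) kept their sign as well. The latter had 1.04 in samples 1 and 0.16 in samples 2 and 3. Their summed level in Control was 1222 to 2915 FPKM, highest in sample 1. Slc12a2, the sodium-potassium-chloride cotransporter of the stria, had -1.31 ± 0.36 (adjusted p = 0.217), with -1.45 in samples 1 and -1.23 in samples 2 and 3.

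**Figure D4:**
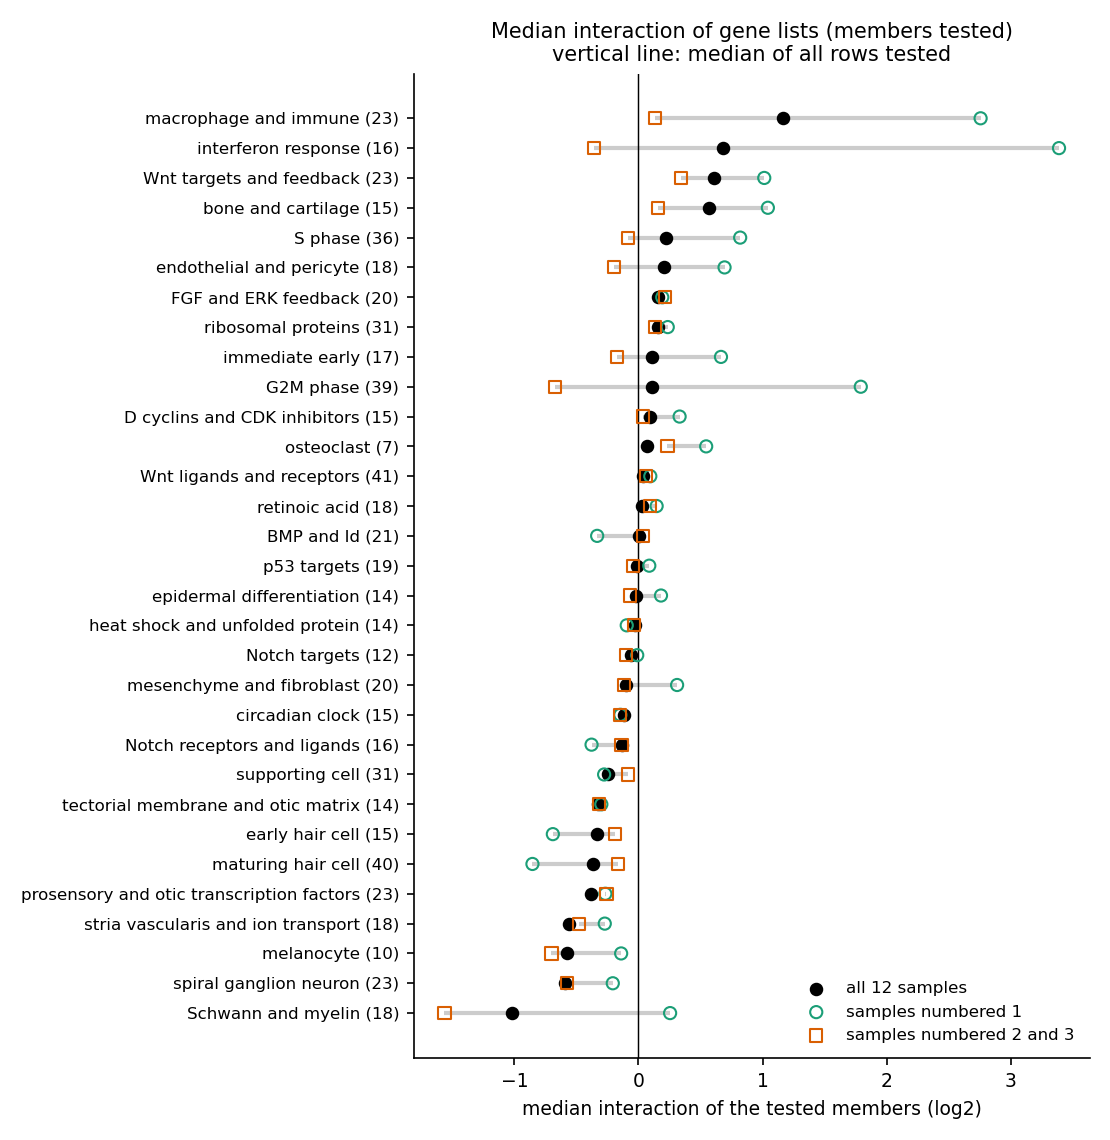
Median interaction on the log2 scale of the tested members of 31 gene lists, with the number tested in brackets, from all 12 samples (filled), samples 1 (open circles) and samples 2 and 3 (open squares). Wnt targets and feedback genes sit at 0.60 and keep a positive sign in both sets, while G2 and M phase genes lie at 1.79 and -0.68.

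The plot of list medians shows how far apart the sets were for lists of immune, interferon, dividing and myelin cells, and how close for Wnt ligands and receptors, Notch targets and FGF genes.

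The sets were then compared gene by gene, a step added after the values were seen. Samples 2 and 3 alone, which are so alike that their spread is small, called 2810 rows (19.3%), 1321 positive (9.06%) and 1489 negative (10.2%). Of these, 1695 (60.3%) had the same sign in samples 1, beside 54.6% of all rows. Across the 14581 rows, which are not independent replicates, Pearson's r of the interaction was 0.20 between samples 1 and samples 2 and 3, and 0.60 between samples 2 and samples 3. Of 532 rows called in samples 2 and 3 with a size of at least 1, 200 also had a size of at least 1 in samples 1, of which 143 (71.5%) had the same sign (0.981% of all rows) and 57 the opposite sign. Without the call in samples 2 and 3, 161 of 227 rows of that size in both sets had the same sign. The 143 were 95 positive and 48 negative. That split was in part set in advance. Dcpp1, among the 95, passed the filter only through the double group. For Gdpd3, also among the 95, additivity would give -0.0044 FPKM, and no level can lie below 0. How many rows were so affected was not counted. Xist was among the 48, at -2.46 in samples 1 and -6.02 in samples 2 and 3. Its level was lowest in the double group in both sets. Agreement of the sets therefore cannot tell sample sex apart from the 2 changes. Of the 57 with opposite signs, 48 were negative in samples 2 and 3.

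**Figure D5:**
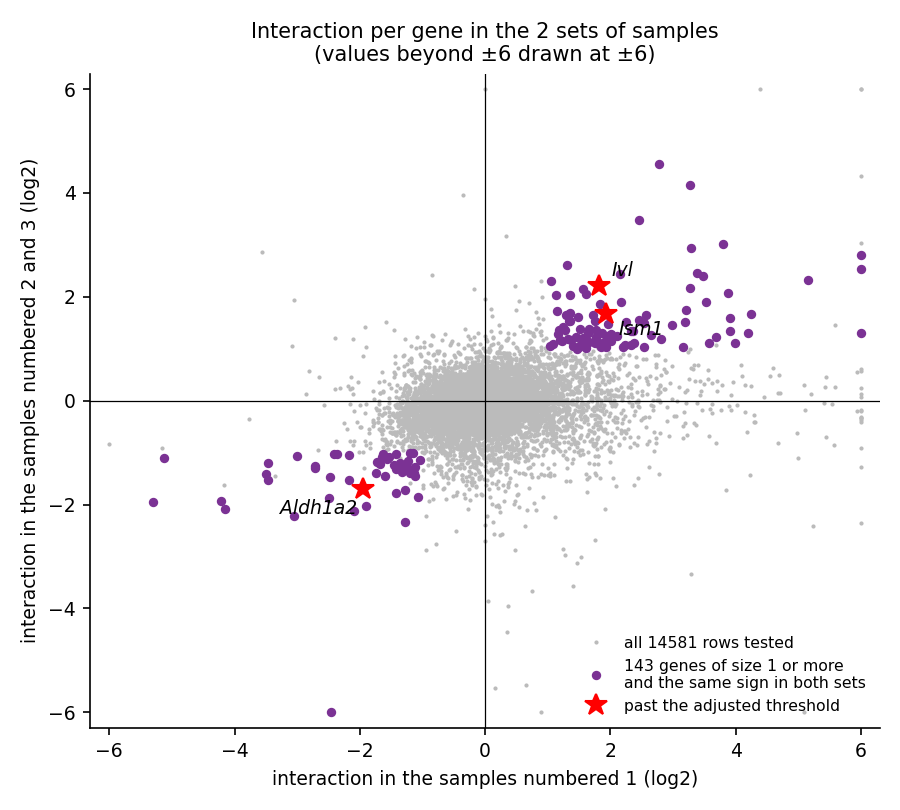
Interaction of each of the 14581 rows in samples 1 (horizontal axis, log2) and in samples 2 and 3 (vertical axis, log2), with the 143 rows of size 1 or more and the same sign in both sets in purple and the 3 called genes as red stars. The stars lie at 1.82 and 2.21 for Ivl, 1.93 and 1.66 for Ism1, and -1.94 and -1.71 for Aldh1a2.

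The plot of the sets shows a cloud that is wider along samples 1 (SD 0.83) than along samples 2 and 3 (SD 0.48). By point estimates, 45 of the 143 were more than additive, 29 less than additive, 28 departed in the double group alone, and 41 had a double effect opposed to the sum of the single effects. Over all 14581 rows these classes held 765, 1334, 12114 and 368. The third class takes every row with both single effects under 0.5 in size, whatever its double effect. The 12114 therefore include rows that changed in no group and are no measure for the 28. Of the 45 more than additive genes 41 were positive, that is, higher in the double group than the single effects gave, beside 453 of the 765. The limits of the filter and of the added 0.5 FPKM bear on this split as well.

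A few of the 95 positive genes are given here. S100a6, a calcium-binding protein, was at 69.6, 97.6 and 90.3 FPKM in Control, 47.9, 183 and 167 with β-catenin OE, 23.2, 39.9 and 44.8 with Notch1 KO, and 227, 631 and 655 with both changes. Notch1 KO was lowest and the double group highest, with interactions of 3.80 in samples 1 and 3.01 in samples 2 and 3. Tph2, which makes serotonin's precursor, was at 0.238 to 0.502 FPKM in Control, 0.207 to 2.79 with β-catenin OE, 0.135 to 0.365 with Notch1 KO and 6.26 to 12.7 with both changes (3.47 and 2.40). The double samples were above all others. The homeobox gene Meox1 had 2.16 and 2.43, S100a14 had 2.45 and 3.47, and Dcpp2, a neighbour of Dcpp1, had 2.78 and 4.56. Dcpp1 and Dcpp2 are near-identical copies, so how fragments were shared between them is uncertain. Of the genes described above, Fgf3, Fgf20, Wnt6, Sp5, Wif1, Ror2 and Trh are among the 95, as is the ligand Wnt10a (3.99 and 1.11). For Trh the sum of single effects, -3.89, is past the lowest value that the added 0.5 FPKM allows. Its positive sign was thus set in advance and does not bear on additivity.

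Of the 48 negative genes, Mylk2, a myosin light chain kinase, was at 0.104 to 0.234 FPKM in Control, 4.70 to 7.65 with β-catenin OE, 0.136 to 0.371 with Notch1 KO and 1.85 to 2.2 with both changes. Its double samples lay between Control and β-catenin OE without overlap, with -1.42 and -1.78. Pla2g4e, a phospholipase, was at 8.80 to 19.1 FPKM in Control, 12.9 to 16.4 with β-catenin OE, 10.2 to 18.9 with Notch1 KO and 3.12 to 3.85 with both changes, low there alone (-1.90 and -2.02). Hsd11b1, which regenerates active glucocorticoid, had -1.60 and -1.46. Alas2, the first enzyme of haem synthesis in red cells, had -3.47 and -1.52, and the row that merges Hbb-b1 and Hbb-bs, a haemoglobin chain, had -5.30 and -1.95. Lars2, Filip1l and Rpph1 had positive values in both sets (6.92 and 2.80, 8.38 and 2.53, 3.28 and 2.94), and their levels spread widely within groups: Filip1l ranged from 113 to 3163 FPKM among the Notch1 KO samples. For Rpph1 additivity would have put the double group at 0.00229 FPKM, next to 0, so almost no negative value was possible.

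Additivity on the untransformed FPKM scale, where levels rather than folds add, gave the same sign for the called genes. There the double mean exceeded the additive level by 6.20 FPKM for Ivl and 24.7 FPKM for Ism1 and was 25.4 FPKM below it for Aldh1a2 (an interaction of -25.4 FPKM).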

How the data were processed

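RNA-seq values of 12 samples (4 groups of 3, from the sample titles) were deposited by the authors as FPKM in 1 table of 23598 rows, with loci on mm10. The submitters' processing notes list Bowtie2 2.2.1, TopHat2 2.0.10, Cufflinks 2.2.1, Cuffdiff, Trimmomatic 0.23 and CASAVA 1.8, with no role or order. Annotation and library scaling: not given in the sources used here. FPKM allows no count test.

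Rows with at least 0.5 FPKM in at least 3 samples (14581) entered a linear model of log2(FPKM + 0.5) in limma 3.58.1 (R 4.3.3), with 1 mean per group and a trended empirical Bayes spread. The interaction is double minus β-catenin OE minus Notch1 KO plus Control. P-values are two-sided and adjusted by Benjamini-Hochberg over all rows, with a threshold of 0.05. The added 0.5 understates folds of low genes. ± is the standard error, and intervals are 95%. Of rows that share a symbol, the one with the highest mean was used under it. Locus starts in the table were 1 base low, so 1 was added. Scripts were tested on simulated data.

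The members and the 33 gene lists were chosen with earlier results of these data known. The named genes were Notch1, Ctnnb1, Ivl, Ism1 and Aldh1a2, the genes with the smallest p that made up 5 per direction (the same sign in samples 1, 2 and 3, at least 1 FPKM in 1 group, no predicted models, small RNA, merged rows or sex-linked genes), from each list with a called member up to 4 genes by smallest p, and up to 8 additive genes. Pathway members and the genes of size 1 or more in both sets of samples were chosen after their values were seen. Classes of non-additivity call single effects under 0.5 small. The other settings tried were the added value, the filter, the scaling, a replicate block, the treatment of samples 2 and 3, the spread model, and leaving out each sample.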

Additional observations from a re-analysis of the deposited data

Results flagged for a closer look

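The effect of Notch1 KO differed between the Control and the β-catenin OE background, by limma's test of the interaction itself, in 3 genes. The difference was 2.08 on the log2 scale for Ivl and 1.75 for Ism1, both higher in the β-catenin OE background, and -1.79 for Aldh1a2, lower in it. Each had the same sign in samples 1, 2 and 3 taken alone. The 3 genes were named from earlier results of these data, so this agreement reuses the values that picked them. None was past the threshold with samples 2 and 3 averaged. Ivl was past the threshold in 15 of 26 other settings, Ism1 in 17 and Aldh1a2 in 14.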

How the results depend on the processing

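The sizes of the 3 called interactions were steadier than the calls, and all kept their sign in the 26 other settings with a test. The count of calls, 3 as reported, was 1 with 0.1 FPKM added, 7 with no filter, 6 after quantile normalization, 177 with a term for sample 1 and 2810 from samples 2 and 3 only. It was 5665 with array weights, whose estimate did not converge. It was 0 with samples 2 and 3 averaged (454 rows at an unadjusted p under 0.05) and 0 with them as a correlated block (476). Leaving out 1 sample gave 0 to 67 calls. With 0.1 FPKM added Ivl was at an adjusted p of 0.0780 and Aldh1a2 at 0.0698, and with no trend Aldh1a2 was at 0.0627. With single effects under 0.25 called small, 0 called genes departed in the double group alone and 1 was opposed. Rows within -0.5 to 0.5 of additivity numbered 2328. Rows of size and sign alike in both sets, 143 as reported, numbered 89 with 1 FPKM added and 630 at a size of 0.5.

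The replicate block by sample number gave 53 calls (0.363%), the 3 reported among them, and 11278 rows within 2-fold of additivity. Over 18 pairs of same-numbered samples the correlation was 0.0635 to 0.47, above 0.1 in 17 of them. Of 12 samples 11 correlated best with their own number, a hint from the data and not the design. The labels do not say what the numbers stand for, so whether samples are paired by number cannot be told.

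Among the 65 genes run in these settings, which did not include samples 1 alone, signs turned in 5 near 0, none called. Itgbl1 was 0.054 from samples 2 and 3 only, 0.038 with array weights and -0.26 to 0.16 with 1 sample left out. S100b was 0.065 with samples 2 and 3 averaged and 0.047 correlated. Gpr45 was 0.021 with array weights. Ccl9 was 0.11 with 1 FPKM added, 0.10 after quantile normalization, 0.057 averaged, 0.052 correlated and -0.34 to 0.17 with 1 sample left out. Erich3 was -0.011 averaged, -0.0031 correlated and -0.12 to 0.43 with 1 sample left out. On untransformed FPKM Itgbl1 was 6.53, S100b 35.8, Gpr45 0.43 and Ccl9 0.46. The causes were not tested.

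Depth of samples 1 is unknown, and intervals of low genes are wide.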
